A study of Homo sapiens with 6 samples.

Results

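The genes described here are the receptors NOTCH1, NOTCH2 and NOTCH3, the ligands JAG1, JAG2 and DLL1, the glycosyltransferase LFNG and the target genes HES1, HEY1 and NRARP. They were found by gene symbol among the transcript probe sets of Clariom D arrays, which held 81496 symbols in all. All 10 symbols were found, each with 1 probe set. They were compared between MCF10.AT1, HRAS-transformed human breast epithelial cells that are sensitive to fluvastatin, and MCF10.AT1-R, a derivative of that line. MCF10.AT1-R was obtained by growth in fluvastatin, an inhibitor of HMG-CoA reductase, in steps from 1 µM through 5 µM up to 20 µM. MCF10.AT1 was untreated. Both lines were grown in the same medium, both carry the transformation of the parental line, and the resistant line is a single selected derivative. The study's methods do not say whether fluvastatin was still present when RNA of MCF10.AT1-R was taken. The labels call the 3 arrays of each line biological replicates and do not say whether these were separate cultures. The p-values therefore measure only the spread between arrays. For the tested genes limma took this as a common SD over all tested probe sets, not the gene's own spread.

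Notch receptors are membrane proteins that are cut after they bind a Jagged or Delta ligand on a neighbouring cell. The freed intracellular part enters the nucleus and, with the DNA-binding protein RBPJ and a Mastermind co-activator, switches on targets such as the HES and HEY repressors and the feedback inhibitor NRARP. In breast and skin epithelium the pathway takes part in the choice between basal and more differentiated states. Much of its control lies in receptor cleavage and protein turnover, which transcript levels do not measure.

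None of the 10 genes passed FDR 5% between the lines, where 620 of 51457 tested probe sets (1.20%) did. Of the 10, 7 were among those tested. NOTCH1, NOTCH2 and LFNG were removed by a filter on invariant probe sets and did not pass in a fit without it. NOTCH3, JAG2 and HEY1 read higher on every kept MCF10.AT1-R array than on either kept MCF10.AT1 array, and NOTCH1 and NRARP lower. Such separation by line in 5 of the 10 genes stood against 23.3% of all 135750 transcript probe sets. The gap between the lines was 0.003 for NOTCH1, 0.09 for JAG2 and 0.12 for NOTCH3. The arrays of NOTCH2, JAG1, DLL1, LFNG and HES1 overlapped. DLL1, HEY1 and NRARP lay within the negative control probe sets on all 5 arrays. The fitted log2 changes ran from -0.61 for NRARP to 0.47 for HEY1, and 9 of the 10 were under 0.5 in size.

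The RBPJ complex recognises the letters GTGGGAA, and the promoter window of HES1, a well-known direct target, is shown with stretches from HES4, HES5 and RBPJ. RefSeq windows of GRCh38.p14, each reaching from 250 bases before to 50 bases after a gene's start, were searched on both strands for GTGGGAA and its reverse complement TTCCCAC. The motif was in 2194 of all 35116 windows (6.25%). Windows were found for 8 of the 10 members, and the motif was in 1 of their 9 windows, that of HES1. For the other pathway genes described below, 38 of 48 were matched and 6 of 49 windows (12.2%) held it, those of HES4, HES5, HEY2, HEYL, SPEN and 1 of the RBPJ windows. A match is a description of the letters in the window and says nothing of binding in these cells. The HES1 window is chr3:194135898-194136197 on the plus strand, with the motif in capitals, its first base at -85 from the start. The stretches of HES4 (chr1:1000148-1000197, minus strand), HES5 (chr1:2530314-2530363, minus strand) and RBPJ (chr4:26319646-26319695, plus strand) run from -100 to -51, and the motif begins at -77, -81 and -73.
HES1: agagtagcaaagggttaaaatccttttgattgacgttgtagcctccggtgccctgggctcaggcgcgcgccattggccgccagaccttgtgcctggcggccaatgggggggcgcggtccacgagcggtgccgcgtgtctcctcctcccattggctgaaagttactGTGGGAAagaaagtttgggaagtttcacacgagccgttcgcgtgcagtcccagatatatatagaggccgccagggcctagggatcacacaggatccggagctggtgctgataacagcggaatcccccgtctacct
HES4: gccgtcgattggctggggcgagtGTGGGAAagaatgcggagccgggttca
HES5: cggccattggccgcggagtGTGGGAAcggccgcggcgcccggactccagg
RBPJ: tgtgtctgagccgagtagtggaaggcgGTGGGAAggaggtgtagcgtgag
These stretches were chosen because the motif lies at a similar distance there. In the windows not printed it began at other distances, at -4 and -213 in HEY2, -178 in HEYL and 1 in SPEN. HES5 has a further TTCCCAC at -224 and RBPJ one at -115.

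Values are the log2 RMA levels that the authors deposited, and a change is MCF10.AT1-R minus MCF10.AT1. The comparison used arrays A01 and A02 of MCF10.AT1 and B02, B03 and B04 of MCF10.AT1-R. Array A03 of MCF10.AT1 was left out, as in the study's methods, and is given apart. Its correlations with the kept arrays were 0.779 to 0.795, against 0.967 to 0.977 among the kept arrays, and the mean of its hybridization controls was 5.99 against 10.35 to 11.33. A probe set is called above background on an array where it exceeded the 95th percentile of 612 negative controls, which was 2.88 to 3.14 on the kept arrays. Over all tested probe sets 390 were higher and 230 lower in MCF10.AT1-R at FDR 5%, the smallest change among them being 1.07 in size. A level depends on the probes of its probe set, so levels of different genes are not set against each other. The number of arrays limits the precision, and in a bulk sample fewer cells of a type cannot be told apart from less RNA per cell.

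**Figure D1:**
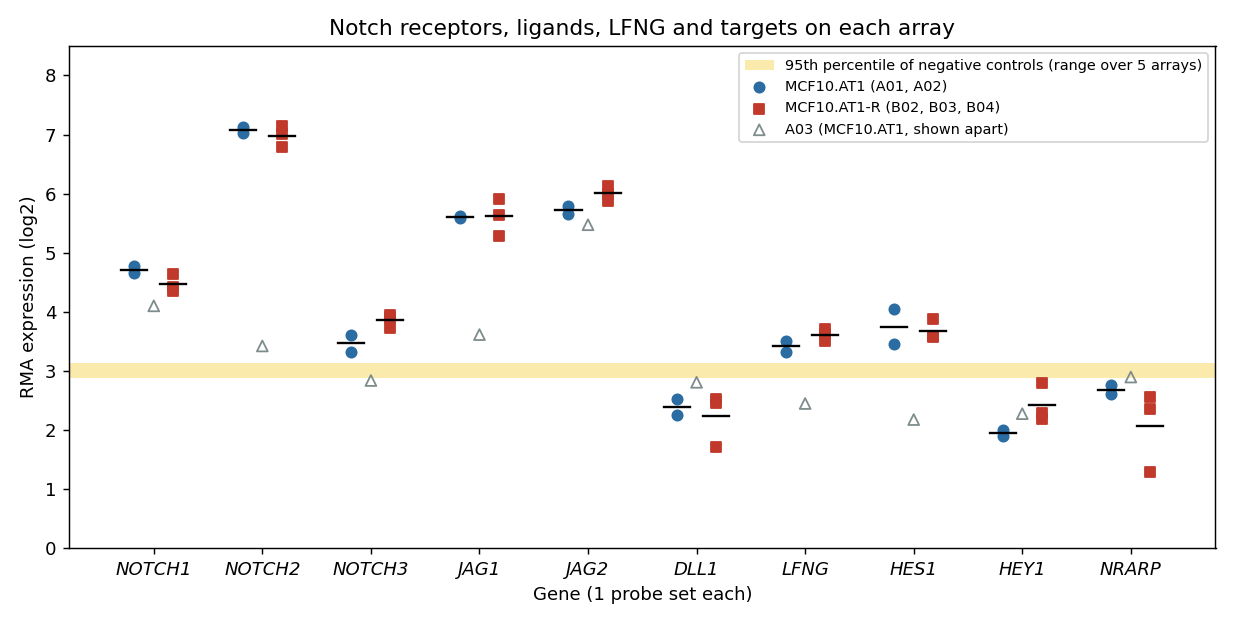
Log2 RMA level (vertical axis) of each of the 10 Notch genes on every array, with MCF10.AT1 and MCF10.AT1-R in their own colours, bars at the means of the kept arrays and A03 drawn as a separate symbol. The differences between the lines were small beside the drop of NOTCH2 and JAG1 on A03, and DLL1, HEY1 and NRARP lay in the range of the negative controls.

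Among the receptors, NOTCH1, which is broadly used in stratified epithelia, read 4.65 on A01 and 4.77 on A02, and 4.65, 4.43 and 4.36 on B02, B03 and B04. The resistant arrays lay below the parental ones, but by a gap of only 0.003 between A01 and B02. The means were 4.71 ± 0.09 (SD, n = 2) and 4.48 ± 0.15 (SD, n = 3). The filter on invariant probe sets removed NOTCH1, and in the limma fit without a filter its change was -0.23 (SE 0.19, 95% interval -0.67 to 0.21, adjusted p = 0.873). On a linear scale this was a ratio of 0.85, with an interval from 0.63 to 1.15.

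NOTCH2, a receptor with a close family of partial copies in the human genome, read 7.12 and 7.03 on A01 and A02, and 7.01, 6.79 and 7.15 on B02, B03 and B04. The highest and the lowest of these were both resistant arrays. NOTCH2 was likewise removed by the filter, and its change in limma without a filter was -0.10 (95% interval -0.55 to 0.36, adjusted p = 0.957). The near-identical NOTCH2NL, named here after its values were seen, can share probe sequence with NOTCH2, which was not tested here. Its brighter probe set read 7.40 and 7.34 in MCF10.AT1 and 7.40, 7.08 and 7.32 in MCF10.AT1-R, with a change of -0.10 as well. B03 was the lowest of the 5 arrays for both genes.

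NOTCH3, in breast a receptor linked to luminal progenitors, read 3.61 and 3.32 on A01 and A02 and 3.95, 3.73 and 3.89 on B02, B03 and B04. All 3 resistant arrays were above both parental arrays, with a gap of 0.12, and all 5 were above background. The means were 3.46 ± 0.20 (SD, n = 2) and 3.86 ± 0.12 (SD, n = 3). The limma change was 0.39 (SE 0.31, 95% interval -0.22 to 1.00, adjusted p = 0.816), a ratio of 1.31 with an interval from 0.86 to 2.00. Of all tested probe sets 74.3% had a smaller change in size, so the receptor with the largest change of the 3 stayed within the bulk of the array.

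The ligand JAG1 read 5.63 and 5.59 on A01 and A02 and 5.91, 5.65 and 5.29 on B02, B03 and B04. The resistant arrays spread to both sides of the parental ones and both means were 5.61, with SDs of 0.03 and 0.31. The limma change was 0.01 (95% interval -0.60 to 0.62, adjusted p = 0.996), so a rise or fall of more than about 0.6 on the log2 scale was outside the interval. JAG1 is both a Notch ligand and, in many tissues, a gene that active Notch itself raises.

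JAG2, the second Jagged ligand, read 5.79 and 5.66 on A01 and A02 and 5.996, 6.13 and 5.88 on B02, B03 and B04. Every resistant array was above every parental array, with a gap of 0.09. The means were 5.72 ± 0.10 (SD, n = 2) and 6.003 ± 0.12 (SD, n = 3). The limma change of 0.28 did not pass (95% interval -0.33 to 0.89, adjusted p = 0.841), and the ratio was 1.21 with an interval from 0.79 to 1.85.

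DLL1, the Delta-type ligand of the set, read 2.26 and 2.53 in MCF10.AT1 and 1.71, 2.53 and 2.46 in MCF10.AT1-R. No kept array was above background, the arrays overlapped, and no fold is given. The difference of the values was -0.16 (95% interval -0.77 to 0.45, adjusted p = 0.906 by limma).

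LFNG, or lunatic fringe, adds a sugar to Notch receptors that changes which ligands they answer to. It read 3.33 and 3.51 on A01 and A02 and 3.71, 3.62 and 3.51 on B02, B03 and B04. B04 and A02 met at the same rounded level, so the groups overlapped. The filter removed LFNG, and in limma without a filter its change was 0.19 (95% interval -0.24 to 0.62, adjusted p = 0.895).

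Of the targets, HES1 is a repressor of differentiation genes that active Notch induces quickly in many cell types, and its promoter window is the one printed above. It read 4.04 and 3.45 on A01 and A02 and 3.87, 3.58 and 3.58 on B02, B03 and B04. The parental arrays were the highest and the lowest of the 5. The means were 3.75 ± 0.42 (SD, n = 2) and 3.68 ± 0.17 (SD, n = 3), and the limma change was -0.07 (95% interval -0.68 to 0.54, adjusted p = 0.962). The sign depended on A01, since the change was 0.23 without that array.

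HEY1, a related repressor, read 1.90 and 2.00 in MCF10.AT1 and 2.28, 2.79 and 2.19 in MCF10.AT1-R. The resistant arrays were above the parental ones, but none of the 5 was above background, so no fold is given. The difference was 0.47 (95% interval -0.14 to 1.08, adjusted p = 0.764 by limma).

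NRARP, an ankyrin-repeat protein that damps Notch signalling and is itself induced by it, read 2.76 and 2.61 in MCF10.AT1 and 2.56, 1.29 and 2.36 in MCF10.AT1-R. B03 stood far below the other 4 arrays, and all 5 were within the negative controls. The difference was -0.61 (95% interval -1.23 to -0.004, adjusted p = 0.599 by limma). Without B03 it was -0.23.

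**Figure D2:**
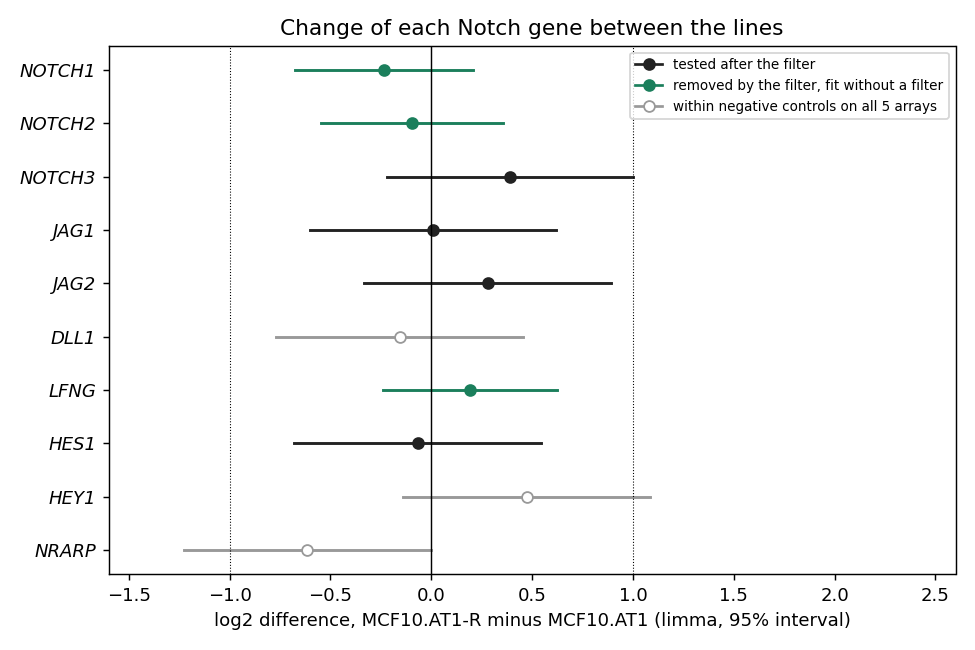
Fitted log2 difference between MCF10.AT1-R and MCF10.AT1 (horizontal axis) of the 10 Notch genes, with 95% intervals from limma. Filled green points are genes removed by the filter, from the fit without one, open grey points are genes within the negative controls, and dotted lines mark -1 and 1. The intervals of 7 genes lay between those lines, and those of NOTCH3, HEY1 and NRARP reached past one of them. DLL1 is among the 7, but its values were within the negative controls, so its interval sets no bound on its expression.

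Over the 10 genes, 7 were tested after the filter and 3 were removed as invariant, and 0 passed FDR 5% in limma. At an unadjusted limma p under 0.05 there was 1, NRARP, which lay within the negative controls. The share of all tested probe sets under that p is not given here. With limma's trend option, under which 2.68% of tested probe sets passed, the count was also 0. For 5 of the 10 genes (3 higher and 2 lower) the kept arrays separated by line, against 23.3% of all 135750 transcript probe sets. Of those 5, HEY1 and NRARP were within the negative controls and NOTCH1 had the gap of 0.003. The median change was -0.03 and the median size of the change 0.21, against 0.01 and 0.18 over all transcript probe sets. The 95% intervals of 7 genes, NOTCH1, NOTCH2, JAG1, JAG2, DLL1, LFNG and HES1, lay inside -1 to 1. That of DLL1 comes from values within the negative controls and sets no bound on a change of its expression.

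**Figure D3:**
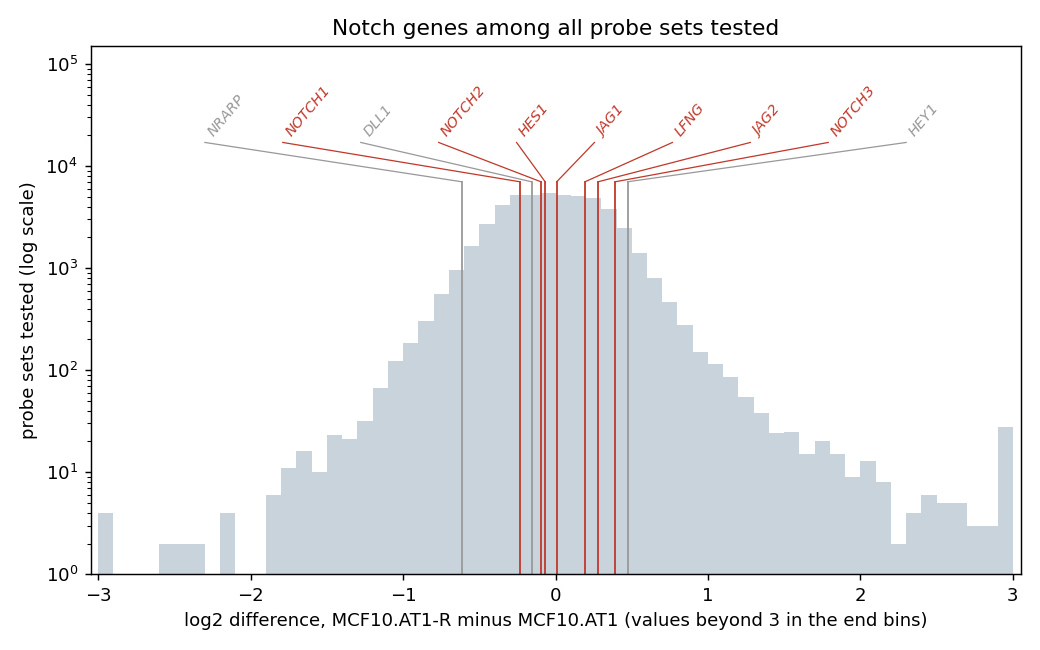
Histogram of the log2 difference (horizontal axis) over the 51457 tested probe sets (vertical axis, number on a log scale), with a line at the value of each Notch gene. Genes within the negative controls are in grey, NOTCH1, NOTCH2 and LFNG are drawn at their values from the fit without a filter, and all 10 lie between -0.61 and 0.47.

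On A03, NOTCH2 read 3.42, which was 3.60 below the mean of the kept arrays, and JAG1 read 3.62, which was 2.00 below it. HES1 read 2.18, LFNG 2.45, NOTCH3 2.84, NOTCH1 4.10 and JAG2 5.47, each below all 5 kept arrays. Of the genes above background on the kept arrays, HES1, LFNG and NOTCH3 were within the negative controls on A03. DLL1 at 2.81 and NRARP at 2.90 were above their values on every kept array, and HEY1 at 2.28 was among them. The 7 genes measured above background thus lay 0.42 to 3.60 below their means on this array. With A03 counted as a parental array the change of NOTCH2 became 1.12 and that of HES1 0.45, with the sign turned in both cases. No member passed in that fit either.

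The rest of the pathway was followed through 48 further genes in 7 lists by role, of which 32 were tested. None passed FDR 5% in limma, against 1.20% of all tested probe sets. An unadjusted limma p under 0.05 was found for 4, namely MIB1, KAT2B, ITCH and DTX4, all with higher values in MCF10.AT1-R. The share of all tested probe sets under that p is not given here, so this count has no background beside it. With the trend option 2 of the 32 passed, ITCH and DTX4, against 2.68% of all tested probe sets. The arrays did not overlap for 17 of the 48 (12 higher, 5 lower), against 23.3% of all transcript probe sets, and the median change was -0.05 within a range from -0.56 to 1.02. Above background on all 5 arrays were 42 genes, and DLK1, POFUT1 and HEY2 were above it on none.

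Among the other receptor and ligands, 4 of 5 genes were tested and the median change was -0.05. NOTCH4, the receptor best known from endothelium, had the largest difference, with 4.77 and 4.91 on A01 and A02 and 4.44, 4.60 and 4.47 on B02, B03 and B04. Its resistant arrays lay below the parental ones, and the limma change of -0.33 did not pass (adjusted p = 0.835). In the list for receptor glycosylation, 4 of 5 were tested and the median was 0.06. RFNG, or radical fringe, read 4.95 and 5.11 in MCF10.AT1 and 4.97, 3.55 and 4.88 in MCF10.AT1-R, so its difference of -0.56 (95% interval -1.17 to 0.05, adjusted p = 0.668 by limma) came with a single low array, B03.

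The ubiquitin ligases that make ligands active had 4 members, all tested, with a median change of -0.26 and MIB1 apart from the other 3. MIB1, or mind bomb, is needed for ligand endocytosis in the sending cell. It read 4.88 and 4.55 on A01 and A02 and 5.52, 5.31 and 5.46 on B02, B03 and B04. All 3 resistant arrays were higher, with a gap of 0.43. The change was 0.71 (95% interval 0.10 to 1.32), and it did not pass in limma (adjusted p = 0.444, or 0.149 with the trend option).

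The genes of receptor cleavage, ADAM proteases and the subunits of γ-secretase, were all 8 above background and 4 were tested, with a median change of 0.14. None passed FDR 5% in limma. The arrays did not overlap for 4 of the 8, 3 higher and 1 lower, against 23.3% of all transcript probe sets. Among these, PSENEN and APH1A had differences of 0.26 and 0.18 and NCSTN, the subunit that receives the substrate, one of -0.18. These subunits of γ-secretase were named after their values were seen, and the filter had removed them, so their differences come from the limma fit without a filter.

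The nuclear complex had 11 genes, 7 of them tested, with a median change of -0.08, and 9 of the 11 were fitted lower. The share of all probe sets fitted lower is not given here, so this count has no background beside it. The median change over all transcript probe sets was 0.01. The arrays overlapped for 7 of the 11. They did not for 4, 2 higher and 2 lower, against 23.3% of all transcript probe sets. RBPJ, the DNA-binding partner of all Notch receptors, was among the genes fitted lower and is named outside the rule for named genes. It read 5.93 and 5.49 on A01 and A02 and 5.42, 5.36 and 5.38 on B02, B03 and B04. Its difference was -0.32, with a gap of only 0.07 between the arrays of the lines (adjusted p = 0.835 by limma). KAT2B, a histone acetyltransferase, read 3.91 and 3.73 on A01 and A02 and 4.55, 4.71 and 4.40 on B02, B03 and B04. Its resistant arrays were all higher, and the change of 0.73 (95% interval 0.12 to 1.34) did not pass in limma (adjusted p = 0.407). A second KAT2B probe set was within the negative controls on all 5 arrays.

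The list for receptor turnover, 8 genes with 6 tested, held the largest differences of the pathway while its median was only 0.07. DTX4, a Deltex-type ubiquitin ligase, read 4.49 and 4.86 on A01 and A02 and 5.85, 5.49 and 5.74 on B02, B03 and B04. The resistant arrays were higher by a gap of 0.64, and the limma change was 1.02 (95% interval 0.41 to 1.63, adjusted p = 0.0724). The adjusted p was 0.00325 with the trend option, 0.0151 with that option and the low-expression filter alone, and 0.0380 with array weights, within a range from 0.00325 to 0.777 over the alternatives. ITCH, a ubiquitin ligase of Notch and other substrates that was singled out after its values were seen, read 5.88 and 5.94 in MCF10.AT1 and 7.09, 6.48 and 6.96 in MCF10.AT1-R. Its arrays were apart by 0.54, and its change of 0.94 (95% interval 0.33 to 1.55, adjusted p = 0.138) passed with the trend option (adjusted p = 0.000242) and with that option and the low-expression filter alone (0.0167). Without A01, which left 1 parental array, the change of DTX4 was 0.84 (adjusted p = 0.748) and that of ITCH 0.91 (adjusted p = 0.668). Without B03 they were 1.12 (adjusted p = 0.0510) and 1.12 (adjusted p = 0.0532).

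Of the other HES and HEY genes, 3 of 7 were tested and the median change was -0.02. The arrays overlapped for 6 of 7 and did not for 1, against 23.3% of all transcript probe sets without overlap. HES4, whose window holds the RBPJ letters at nearly the same distance as that of HES1, read 4.20 and 4.43 in MCF10.AT1 and 4.66, 4.16 and 5.03 in MCF10.AT1-R. The resistant arrays lay on both sides of the parental ones, and its difference was 0.31 (adjusted p = 0.838 by limma).

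**Figure D4:**
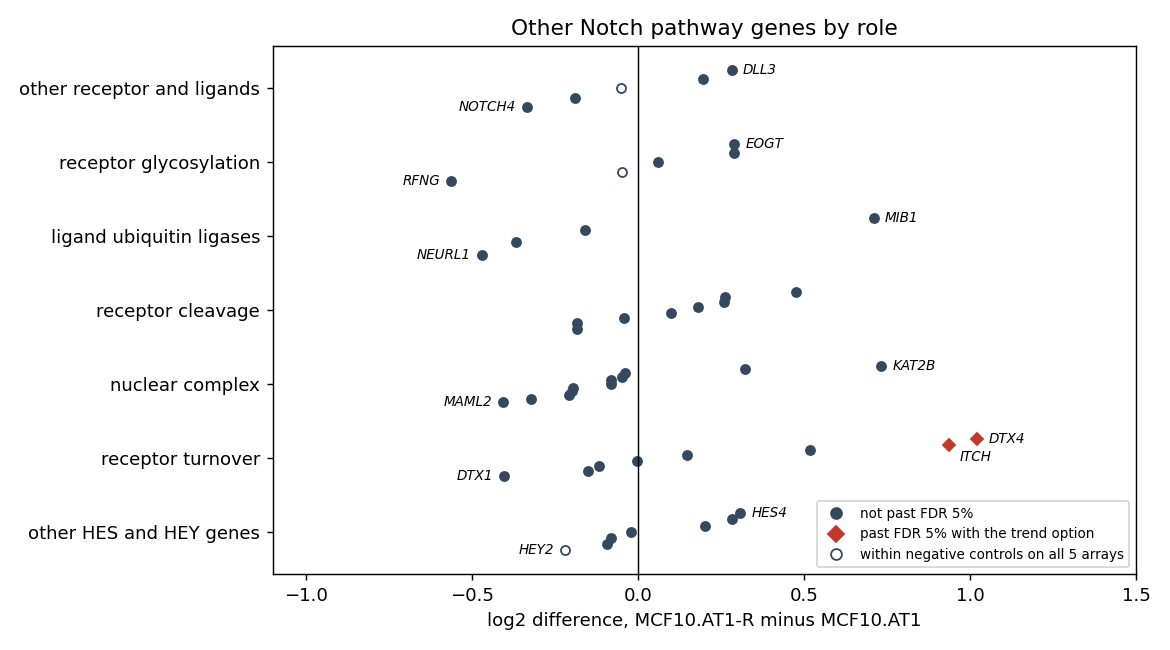
Log2 difference between MCF10.AT1-R and MCF10.AT1 (horizontal axis) of the 48 other Notch pathway genes, 1 point per gene, in rows by role, with gene names at the ends of 6 rows. Red diamonds are ITCH and DTX4, which passed FDR 5% in limma with the trend option and not without it, open circles are within the negative controls, and DTX4 lies furthest to the right at 1.02.

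The label of breast epithelium was checked with 6 marker lists. The list for basal breast epithelium joined the basal genes KRT5, KRT14, KRT17 and TP63 with EPCAM and CDH1, which mark epithelium in general. Of these, 5 of 6 were higher in MCF10.AT1-R at FDR 5% in limma (CDH1, KRT5, KRT14, KRT17 and TP63). Over all tested probe sets 1.20% passed in either direction. EPCAM had a change of 0.78 that did not pass (adjusted p = 0.341 by limma). The summed log2 levels of all 6 were 39.0 to 39.999 on the parental and 51.1 to 52.0 on the resistant arrays. Suprabasal keratinocyte markers rose for 3 of 6, KRT1, CDSN and IVL, with sums of 19.0 to 19.3 on the parental and 24.0 to 26.1 on the resistant arrays. KRT10 had a change of 0.58 that did not pass. FLG was within the negative controls, and LOR, above background on 1 array, had a difference of -0.14 without a filter. Luminal markers rose for 2 of 6, KRT8 and KRT19, with sums of 32.2 to 33.1 and 36.7 to 38.0. KRT18 had a change of 0.85 that did not pass (adjusted p = 0.243 by limma). GATA3, removed by the filter, had a difference of 0.18. PGR was within the negative controls and ESR1 above background on 2 arrays. The lists of fibroblasts (1 of 7 lower, DCN, sums 30.2 to 30.7 and 27.6 to 28.7), endothelium (1 of 5 lower, PECAM1, sums 15.8 to 16.0 and 14.1 to 14.8) and blood cells (1 of 5 lower, CD14, sums 15.1 to 17.2 and 15.9 to 16.8) had no marker that rose. Of their defining genes, LUM, PDGFRB, KDR, TEK and PTPRC were within the negative controls on all 5 arrays, COL1A1 and COL1A2 were above background with differences of 0.15 and 0.13, CDH5 was above it on 3 arrays, and CD3E on all 5. The epithelial markers thus moved between the lines by up to 4.08 where no Notch gene passed, and the part of these marker differences in the small Notch differences was not tested.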

How the data were processed

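Total RNA of MCF10.AT1 and MCF10.AT1-R, 3 samples each, was hybridised to Clariom D arrays. The authors deposited log2 expression values made by RMA (affy and oligo, per the study's methods), before any filter. The genome build of the probe sets is not given in the sources used here. Array columns were assigned to lines by the study's supplementary principal component plot. They carry no replicate number.

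Of 135750 transcript probe sets (controls left out), 51457 were tested, namely those with a mean over the 5 kept arrays above the median (1.88) and an SD above the lowest 25% (0.18). These limits were chosen here. The lines were compared in limma 3.58.1 (lmFit, eBayes; R 4.3.3), and p-values were adjusted after Benjamini and Hochberg over all tested probe sets. The filter led limma to a common SD of 0.34, so tested genes share an interval width. Genes removed by the filter were read from a fit without it. The procedure was tested on simulated data, where the share of false calls was above the nominal 5% with this filter, with and without the trend option. Where a symbol had several probe sets, the one with the highest mean was used.

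Named genes are the 10 members, in each pathway list any gene past FDR 5% and the largest difference above background, and the first genes of the marker lists. 1 gene is not reported here. Others are said to be chosen later or outside this rule, or are listed because they passed. The members and lists were chosen with earlier results of these data known. The alternatives changed the arrays, filter, variance model, array weights, normalization, probe set rule and background floor.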

Additional observations from a re-analysis of the deposited data

How the results depend on the processing

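No member passed FDR 5% under any of 15 alternatives. The sign of a member's change turned in these cases, none of them called. With A03 added back NOTCH2 was 1.12 and HES1 0.45, and after a second quantile normalization JAG1 was -0.0041. Over the fits that left out 1 array each, HES1 ran from -0.36 to 0.23 (turned without A01), JAG1 from -0.14 to 0.17 (without A02, B02 or B03), DLL1 from -0.30 to 0.10 (without B02) and NOTCH2 from -0.18 to 0.0033 (without B03). NOTCH1, NOTCH3, JAG2, LFNG, HEY1 and NRARP kept their sign wherever a value could be had. With a floor at the negative controls DLL1, HEY1 and NRARP had no value. The other pathway genes past the threshold numbered 0, and 2 with the trend option, 2 with that option and the low-expression filter alone, and 1 (DTX4) with array weights. Over all probe sets, 620 calls became 26 with A03 added back, 182 with the low-expression filter alone, 177 with no filter, 1377 with the trend option, 1086 with that option and the low-expression filter alone, and 272 with the floor. Leaving out 1 array gave 271 (A02) to 595 (B03), with 314 without A01. No paired analysis was possible because the array columns carry no replicate number. Signal over background limits DLL1, HEY1 and NRARP, whose changes could not be measured.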

Other observations

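The second probe set of HEYL, a HEY-family repressor, read 3.04 and 3.34 on A01 and A02 and 2.56, 2.95 and 2.57 on B02, B03 and B04, and only A02 was above background, so no difference is given. Its brighter probe set had a difference of -0.08 with overlapping arrays. NALT1, named here after its values were seen, read 3.31 and 2.94 in MCF10.AT1 and 2.93, 3.38 and 2.70 in MCF10.AT1-R. The arrays overlapped, and A02 and B04 were within the negative controls, so its difference of -0.12 comes from values near background. On A03, 33 of the 48 other pathway genes were below all 5 kept arrays, and 6 were above them, DLL3, DLK1, NEURL1, DTX2, HES5 and HES6.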
